A study of Homo sapiens with 24 samples.

Results

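The response of RCC4+VHL renal carcinoma cells to 6 h of hypoxia on its own was measured in 12 of the 24 RNA-seq libraries of the series, 6 from normoxia + DMSO and 6 from hypoxia + DMSO. Normoxia was 21% oxygen and hypoxia 0.5% oxygen, both groups received 0.1% DMSO, which is the vehicle, and neither received ITE, the AHR ligand given at 100 nM to the other 12 libraries (normoxia + ITE and hypoxia + ITE). The libraries were taken by their labels, with same-numbered replicates entered as pairs. RCC4 is a clear cell renal carcinoma line without functional VHL, and in RCC4+VHL the VHL gene was put back by stable transfection of a plasmid, so both groups carry it and every library describes 1 transfected line. The cells were kept in charcoal-treated serum before treatment. Of 23106 gene symbols in the files, the 11664 with at least 10 counts in at least 6 of the 12 libraries were tested, and 11442 were not. At the edge of that filter, 211 tested genes had the minimum in exactly 6 libraries (median 1.11 CPM, the count scaled to library size) and 249 untested genes had it in exactly 5 (median 0.782 CPM).

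Total counts ran from 6898880 to 93851342 in normoxia + DMSO and from 770094 to 37995687 in hypoxia + DMSO, so that 3 counts correspond to between 0.0300 and 4.20 CPM. CPM of tested genes are scaled to library size with TMM factors, and those of untested genes and of summed markers to the library total alone. The shallowest was hypoxia + DMSO replicate 2, and the low levels below are coarse in it. Hypoxia + DMSO replicate 1 stood apart: its genes deviated from the group mean by a median of 0.355 on the log2 scale, against 0.0911 to 0.192 in the other libraries save hypoxia + DMSO replicate 2 (0.298). Cytosolic ribosomal protein genes took 12.4% of its counts and 8.10 to 9.47% in the other hypoxia + DMSO libraries. Normoxia + DMSO replicate 4 held 74 genes with at least 10 counts that were at 0 in the other 11 libraries, among them the fibroblast collagen gene COL1A2 at 17.0 CPM. The 10 fibroblast markers summed to 129.5 CPM in it and 22.7 to 60.7 CPM elsewhere. All 10 markers of renal carcinoma and tubular epithelium reached 1 CPM in at least 6 libraries, against 3 of 10 fibroblast, 2 of 10 leucocyte and 1 of 10 endothelial markers. VHL measured 178 ± 8.64 CPM (SD, n = 6) in normoxia and 182 ± 32 CPM (SD, n = 6) under hypoxia, with an edgeR log2 fold change of 0.01 (adjusted p = 0.971).

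In oxygenated cells the α subunits of hypoxia-inducible factor (HIF) are hydroxylated by the EGLN prolyl hydroxylases, recognised by VHL and degraded. When oxygen falls, HIF-α escapes hydroxylation, pairs with HIF-1β (ARNT) and binds hypoxia response elements with the core sequence RCGTG. Its classical targets carry glucose into the cell and through glycolysis, restrain mitochondrial pyruvate oxidation, dismantle mitochondria, signal to blood vessels and rebuild the matrix. In RCC4 cells without VHL this system is on at any oxygen level, and re-expressed VHL returns the control to oxygen.

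Across the 11664 genes, 209 rose in hypoxia + DMSO (1.79% of those tested) and 53 fell (0.454%) at an adjusted p under 0.05 in edgeR's quasi-likelihood test with the replicate block. Changes below are edgeR log2 fold changes ± SE, and adjusted p-values are over all tested genes. The median of all tested genes was -0.01, with 47.6% of genes above 0. The genes that rose changed more than those that fell. The 209 had a median log2 fold change of 0.77, a 1.71-fold increase, and ranged from 0.32 to 4.72, with 69 beyond 1 and 19 beyond 2. The 53 had a median of -0.53, a 1.44-fold decrease, and ranged from -0.36 to -2.24, with 2 beyond -1. All but 15 of the 209 were higher in 6 of 6 pairs, and all but 1 of the 53, MAP2K3, were lower in 6 of 6. The hypoxia libraries lay wholly above the normoxia libraries for 143 of the 209 genes, where 1.81% of all tested genes did so. They lay wholly below for 30 of the 53, where 0.892% of all tested genes did so. The called genes were chosen on the difference between these same libraries. Gaps between the groups and pair directions, here and below, are therefore not separate support. In the single pairs the median log2 ratio of the 209 genes ran from 0.71 to 0.81, and that of the 53 from -0.43 to -0.75, the latter in pair 1, which holds the library that stands apart.

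**Figure D1:**
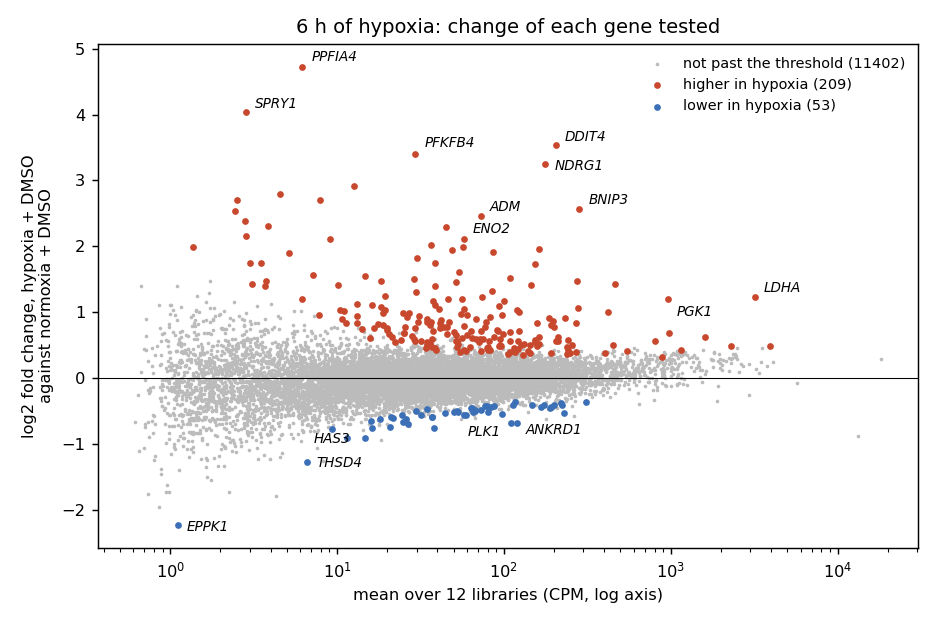
Each point is 1 of the 11664 tested genes, with its mean CPM over the 12 libraries on the x axis (log axis) and its edgeR log2 fold change, hypoxia + DMSO over normoxia + DMSO, on the y axis; coloured points are the 209 genes that rose and the 53 that fell. The largest increases reach 4.72 and all but 2 of the decreases are smaller than 1 on the log2 scale.

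The raised set held up in more of the fits than the lowered set. Of the 209 genes, 115 passed in every fit that left out 1 pair, and of the 53 lowered genes 5 did. Leaving out pair 1 gave 389 higher and 158 lower genes, and leaving out pairs 2 to 6 gave 166, 126, 163, 129 and 130 higher and 32, 6, 38, 7 and 10 lower. With a required change of more than 1.5-fold, 59 genes rose and 0 fell (40 lower at an unadjusted p under 0.05; 53 lower in edgeR and 157 in DESeq2 without that requirement). Scaled to library totals alone, which moved the median of all genes to -0.10, 145 genes were higher and 91 lower. Of the 262 called genes, 228 had at least 10 counts in all 12 libraries. Only 1 raised gene, SPRY1, passed the filter with fewer than 3 normoxia libraries and only 1 lowered gene, EPPK1, with fewer than 3 hypoxia libraries. By annotation, 201 of the 209 are protein-coding, 4 are long non-coding RNAs and 4 have no type given, and all 53 are protein-coding.

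The start regions of some of these genes are shown to let the sequence be read beside the response. A promoter here is the 250 bases before and the 50 bases after the RefSeq transcript start (GRCh38.p14), and 9381 of the 11664 tested genes had one, including 163 of the 209 and 41 of the 53. The HIF core was searched as ACGTG and as GCGTG on both strands. Where CACGTG stands, ACGTG is read once on each strand. PPFIA4 (chr1:203026241-203026540, forward strand), ANKRD37 (chr4:185396591-185396890, forward strand) and LDHA (chr11:18394313-18394612, forward strand) are shown as raised genes with 2, 3 and 5 copies of ACGTG, the only motif in capitals in these 3. PFKFB4 (chr3:48556754-48557053, reverse strand) is shown as a strongly raised gene with 1 GCGTG (in capitals) and no ACGTG, and ARRDC3 (chr5:91383268-91383567, reverse strand) as 1 with neither.
PPFIA4: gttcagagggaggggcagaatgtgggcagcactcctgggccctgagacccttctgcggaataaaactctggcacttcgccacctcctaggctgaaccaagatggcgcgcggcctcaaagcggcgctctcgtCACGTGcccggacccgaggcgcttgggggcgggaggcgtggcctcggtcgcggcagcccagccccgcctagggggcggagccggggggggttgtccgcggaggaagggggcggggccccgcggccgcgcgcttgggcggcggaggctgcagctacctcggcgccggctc
ANKRD37: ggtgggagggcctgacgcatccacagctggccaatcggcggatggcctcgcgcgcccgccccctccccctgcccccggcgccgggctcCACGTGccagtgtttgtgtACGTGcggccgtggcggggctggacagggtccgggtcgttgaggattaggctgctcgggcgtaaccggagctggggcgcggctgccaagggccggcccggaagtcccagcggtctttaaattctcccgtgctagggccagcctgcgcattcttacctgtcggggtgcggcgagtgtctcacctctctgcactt
LDHA: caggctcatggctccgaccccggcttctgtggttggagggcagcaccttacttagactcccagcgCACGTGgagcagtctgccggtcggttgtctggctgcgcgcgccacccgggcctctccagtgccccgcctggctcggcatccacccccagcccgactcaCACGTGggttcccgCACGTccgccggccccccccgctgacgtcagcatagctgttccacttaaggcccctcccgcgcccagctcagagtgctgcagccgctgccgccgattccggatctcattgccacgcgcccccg
PFKFB4: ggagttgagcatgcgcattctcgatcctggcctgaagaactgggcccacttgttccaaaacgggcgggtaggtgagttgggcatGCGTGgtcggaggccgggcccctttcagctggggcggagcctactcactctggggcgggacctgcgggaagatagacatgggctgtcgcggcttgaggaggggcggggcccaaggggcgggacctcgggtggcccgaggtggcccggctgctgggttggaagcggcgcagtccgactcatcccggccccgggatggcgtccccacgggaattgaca
ARRDC3: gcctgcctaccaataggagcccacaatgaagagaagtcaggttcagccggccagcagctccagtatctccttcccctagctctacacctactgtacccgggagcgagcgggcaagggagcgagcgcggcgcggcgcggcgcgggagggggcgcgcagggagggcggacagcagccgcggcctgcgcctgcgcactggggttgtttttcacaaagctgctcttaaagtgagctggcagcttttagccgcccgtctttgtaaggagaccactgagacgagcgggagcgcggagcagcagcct

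ACGTG was present in 44.8% of the promoters of raised genes, 24.4% of those of lowered genes, 27.3% of those of all tested genes and 21.4% of all 35116 promoters in the table. It was also in 42.1% of the 19 promoters of glycolytic enzymes and in 38.6% of the 44 of mitosis genes, the list with the most lowered members. At least 2 copies were present in 25.8% of raised and 12.6% of tested promoters, where a single CACGTG counts as 2 copies. The full palindrome CACGTG was found in 18.4% of raised, 14.6% of lowered and 10.5% of tested promoters (7.26% of all promoters). GCGTG did not separate the sets, with 50.9% of raised, 53.7% of lowered and 52.0% of tested promoters (36.5% of all promoters). The median GC content of the windows was 67.7% for raised, 67.0% for lowered and 65.7% for tested genes. These are shares of windows that hold the letters, and no binding was measured in these libraries.

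The largest increases included genes that were close to silent in normoxia and genes already well expressed there. PPFIA4, which encodes liprin-α4, a scaffold protein (chr1:202995619-203047868, GRCh37, as are all gene positions below), was at 0 to 1.01 CPM (median 0.483) in the normoxia libraries and 4.67 to 15.5 CPM (median 12.5) in the hypoxia libraries (log2 fold change 4.72 ± 0.36, adjusted p = 2.53e-06). SPRY1, an inhibitor of receptor tyrosine kinase signalling to ERK (chr4:124317950-124324915), had 0.150 to 0.457 CPM (median 0.273) in normoxia and 4.20 to 7.56 CPM (median 4.68) (log2 fold change 4.04 ± 0.39, adjusted p = 3.22e-05). In both genes every hypoxia library was above every normoxia library, although the normoxia values rest on few counts and the lowest hypoxia value of SPRY1 is 3 counts in replicate 2. SPRY1 had at least 10 counts in fewer than 3 normoxia libraries and so entered the test mainly through hypoxia, where it was high. For this reason too, the gap between its groups is not separate support. DDIT4, the stress-induced inhibitor of mTORC1 also called REDD1 (chr10:74033678-74035794), had 24 to 41.6 CPM (median 32.3) in normoxia and 330.0 to 420.3 CPM (median 379.7) in hypoxia (log2 fold change 3.54 ± 0.13, adjusted p = 2.82e-09). NDRG1, a classical hypoxia-induced gene (chr8:134249418-134314265), had 28.6 to 44.7 CPM (median 31.7) and 237 to 381 CPM (median 339) (log2 fold change 3.25 ± 0.13, adjusted p = 2.98e-09). BNIP3, a mitochondrial receptor for autophagy (chr10:133781188-133795471), had 63.2 to 100.5 CPM (median 81) and 453 to 548 CPM (median 475) (log2 fold change 2.56 ± 0.10, adjusted p = 2.98e-09). These 3 were near or above the median of all tested genes in normoxia, and their groups were separated by a wide gap.

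The 15 largest increases were taken among genes with a mean of at least 1 CPM over the 12 libraries and an increase in 6 of 6 pairs, and the remaining ones were also separated between the groups, unless stated. RAB20, a vesicle GTPase, had a log2 fold change of 2.92 ± 0.25 (adjusted p = 9.4e-06), and ANKRD37, an ankyrin repeat gene, 2.79 ± 0.28 (adjusted p = 4.65e-05). MIR210HG, the non-coding host transcript of the hypoxia-induced microRNA miR-210, had 2.71 ± 0.24 (adjusted p = 1.62e-05). The mature microRNA itself was not measured. ARRDC3, an arrestin-domain protein that sorts receptors, rose by 2.29 ± 0.12 (adjusted p = 4.59e-08) with no HIF core in the window printed above. RIMKLA, an enzyme of N-acetylaspartylglutamate synthesis, rose by 2.71 and the zinc finger gene ZNF470 by 2.54. RIMKLA was 9.80 CPM in the shallow hypoxia + DMSO replicate 2 and 2.54 to 3.91 CPM in the other hypoxia libraries. APLN, which encodes the vascular peptide apelin, rose by 2.38 (adjusted p = 0.0118) but its groups overlapped and it passed in 3 of 6 fits without a pair. GTF2IRD2B (2.15, adjusted p = 0.0264) had overlapping groups, passed in 2 of 6 and has the near-identical copy GTF2IRD2, so its reads may be split between the copies.

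**Figure D2:**
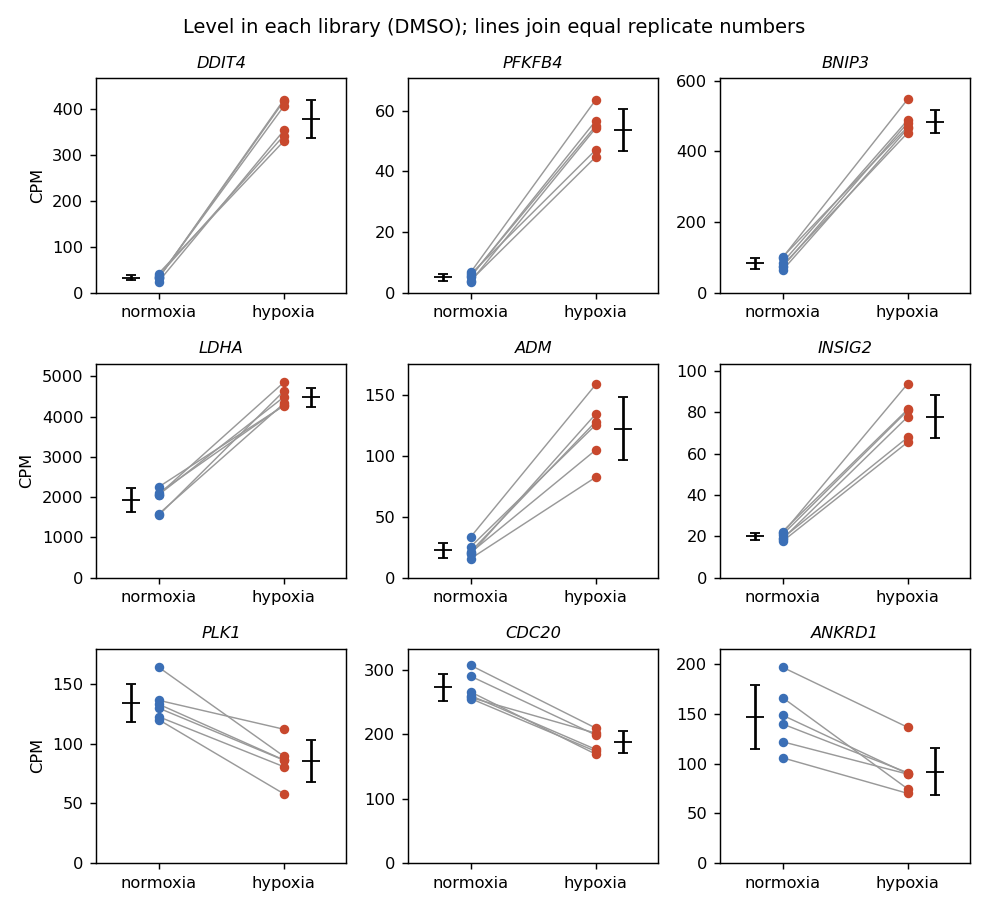
CPM of 9 named genes in each of the 6 normoxia + DMSO and 6 hypoxia + DMSO libraries, 1 panel a gene, with each point a library, a line joining equal replicate numbers and black bars for mean ± SD; the y axes start at 0 and differ between panels. DDIT4 moves from at most 41.6 to at least 330.0 CPM, whereas PLK1 moves from at least 120.1 to at most 112 CPM.

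Glycolysis had the highest share of raised genes among the pathway lists, that is, leaving aside the genes the study selected. Of its 19 tested enzymes, 11 rose and 0 fell, 18 had a positive fold change, and the median was 0.48 against -0.01 for all tested genes. Of all tested genes 1.79% rose and 0.454% fell, and these shares also stand beside the counts of the lists below. The summed counts of the 21 enzymes listed made up 1.46 to 1.71% of all counts in normoxia (median 1.58%) and 2.08 to 2.42% in hypoxia (median 2.29%), with no overlap and an increase in 6 of 6 pairs. LDHA, which turns pyruvate into lactate (chr11:18416107-18429972), had 1548 to 2251 CPM (median 2059.9) in normoxia and 4271 to 4849 CPM (median 4404) in hypoxia (log2 fold change 1.22 ± 0.11, adjusted p = 1.16e-05). PGK1, which makes ATP from 1,3-bisphosphoglycerate (chrX:77166236-77384792), had 520.0 to 655 CPM (median 595) and 1199.5 to 1451 CPM (median 1336) (log2 fold change 1.19 ± 0.09, adjusted p = 2.44e-06). The hypoxia libraries were above all normoxia libraries for both. ENO2, the neuronal enolase (chr12:7022909-7032861), had the largest change of the list, with 18.5 to 28.9 CPM (median 20.8) and 65.8 to 108 CPM (median 97.6) (log2 fold change 2.11 ± 0.12, adjusted p = 9.43e-08). Of the hexokinases that trap glucose as glucose 6-phosphate, HK2 rose by 1.90 ± 0.13 and HK1 by 1.16 ± 0.15 (adjusted p = 9.06e-07 and 0.000567). ALDOC (log2 fold change 1.08), TPI1 (0.68), ALDOA (0.62), PGAM1 (0.56), GAPDH (0.48) and ENO1 (0.48) completed the 11. Each of these 6 covers a different reaction or tissue form of the same chain from fructose 1,6-bisphosphate to phosphoenolpyruvate.

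Some steps of the chain did not pass the test. GPI, the second enzyme, had a log2 fold change of 0.41 (adjusted p = 0.0552), and pyruvate kinase PKM 0.32 (adjusted p = 0.192). LDHB, the lactate dehydrogenase form that is not a classical HIF target, was at 0.28 (adjusted p = 0.251). The phosphofructokinase genes PFKP, PFKL and PFKM had 0.23 (adjusted p = 0.383), 0.16 (adjusted p = 0.508) and -0.01 (adjusted p = 0.967), also short of the threshold. Their allosteric activator fructose 2,6-bisphosphate is made by the PFKFB enzymes, and 2 of the 4 tested genes of that group rose. PFKFB4 (chr3:48555117-48599448) had 3.60 to 6.65 CPM (median 5.26) in normoxia and 44.8 to 63.7 CPM (median 54.7) (log2 fold change 3.39 ± 0.14, adjusted p = 5.85e-09). PFKFB3 had a smaller log2 fold change of 1.07 ± 0.11 (adjusted p = 3.96e-05).

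Entry of glucose and exit of lactate each had 1 raised gene. SLC2A1, the glucose transporter GLUT1 (chr1:43391024-43424564), had 118 to 168 CPM (median 148) and 306 to 479 CPM (median 407) (log2 fold change 1.47 ± 0.12, adjusted p = 6.71e-06). SLC16A3, the lactate exporter MCT4, rose by 0.63 ± 0.09 (adjusted p = 0.00178), whereas SLC16A1, the related transporter MCT1, was at 0.08 (adjusted p = 0.665). These were 2 of 10 tested transporters, 5 of which had a positive fold change. The classical glucose transporter gene SLC2A3 was not tested, with counts of at most 3 in any library.

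At the mitochondrial gate, PDK1 rose and no other gene of pyruvate entry passed. PDK1, the kinase that switches off pyruvate dehydrogenase (chr2:173420101-173473397), had 24.8 to 30.5 CPM (median 25.7) and 65.2 to 94.9 CPM (median 83.8) (log2 fold change 1.61 ± 0.11, adjusted p = 1.21e-06). It was 1 of 12 tested genes of pyruvate entry, whose median was -0.04, and the pyruvate dehydrogenase subunit PDHA1 was at 0.22 (adjusted p = 0.328). Of the 20 genes of the tricarboxylic acid cycle, 0 passed in edgeR (median 0.10; 4 higher and 1 lower at an unadjusted p under 0.05, and 1 higher with DESeq2). The 79 tested nuclear genes for respiratory chain subunits had a median of 0.22, with 73 positive and 0 called in edgeR (30 higher and 1 lower at an unadjusted p under 0.05, and 3 higher with DESeq2). Without pair 1 that median was 0.105. The 82 cytosolic ribosomal protein genes behaved alike, with a median of 0.30, 81 positive and 1 called, RPS9 (0.42, adjusted p = 0.0347), and a median of 0.21 without pair 1. In the fits without the replicate block, leaving out hypoxia + DMSO replicate 1 alone took these medians from 0.25 to 0.09 and from 0.32 to 0.19. Ribosomal protein genes have many processed copies in the genome, and the count of RPS9 is uncertain.

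Mitophagy, the removal of mitochondria by autophagy, contributed 3 raised genes of 35 tested and 0 lowered (median 0.09), where 1.79% of all tested genes rose. Besides BNIP3 the raised members were its paralogue BNIP3L, also called NIX (chr8:26240570-26363152), with 60.1 to 70.1 CPM (median 67.7) and 204 to 292 CPM (median 264) (log2 fold change 1.95 ± 0.09, adjusted p = 2.25e-08), and ATG9A, a lipid-moving autophagy protein (0.42 ± 0.10, adjusted p = 0.0392, past the threshold in 2 of 6 fits without a pair). For both receptors the groups did not overlap. FAM162A, a mitochondrial protein that HIF is known to induce, and ANKZF1, a factor for stalled ribosomes, are outside every list and were picked once their values were known. They rose by 2.02 ± 0.13 and 1.99 ± 0.13 (adjusted p = 8.2e-07 and 4.08e-07).

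Storage of carbon gave a scatter of raised genes in otherwise flat lists. Of 23 tested genes of glycogen metabolism 4 rose and 0 fell (median 0.04). These were PPP1R3C, which targets protein phosphatase 1 to glycogen (2.11 ± 0.27, adjusted p = 0.000394), the glycogen-binding STBD1 (1.11), the branching enzyme GBE1 (0.90) and phosphoglucomutase PGM1 (0.54). The glycogen synthase gene GYS1 had a log2 fold change of 0.58 that missed the threshold (adjusted p = 0.0587). Of 19 tested lipid droplet genes, HILPDA and PLIN2 rose and 0 fell (median -0.05). HILPDA, which inhibits the lipase ATGL (chr7:128095903-128098472), had 11.7 to 14.9 CPM (median 13.6) and 15.4 to 61.8 CPM (median 51.4) (log2 fold change 1.82 ± 0.19, adjusted p = 7.15e-05). The lowest hypoxia value came from the shallow replicate 2, close above the normoxia range, and the other 5 hypoxia libraries were at 46 CPM or more. PLIN2, the coat protein of droplets (chr9:19108373-19149288), had 63.6 to 75.5 CPM (median 71.3) and 185 to 286 CPM (median 235) (log2 fold change 1.73 ± 0.09, adjusted p = 5.78e-08), without overlap.

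In sterol metabolism both INSIG genes, whose proteins hold the SREBP precursors in the endoplasmic reticulum, were among the 29 tested and no biosynthetic enzyme passed. INSIG2 (chr2:118846028-118868573) had 17.6 to 22.3 CPM (median 19.97) in normoxia and 65.5 to 93.8 CPM (median 79.3) (log2 fold change 1.95 ± 0.10, adjusted p = 4.41e-08), with the groups apart. INSIG1 rose by 0.56 ± 0.09 (adjusted p = 0.00434, and 0.0708 without the replicate block). The median of the list was -0.02, and 0 of the 20 fatty acid synthesis genes passed in edgeR (median 0.00; 2 higher and 1 lower at an unadjusted p under 0.05, and 1 higher with DESeq2).

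The oxygen-sensing machinery responded through 1 of 14 tested genes. EGLN1, the main HIF prolyl hydroxylase PHD2 (chr1:231499497-231558033), had 127 to 148 CPM (median 140.1) in normoxia and 214 to 275 CPM (median 246) (log2 fold change 0.81 ± 0.09, adjusted p = 8.71e-05), without overlap. The HIF subunits themselves did not pass the test, HIF1A at -0.17 (adjusted p = 0.321), EPAS1, which encodes HIF-2α, at -0.02 (adjusted p = 0.961) and ARNT at -0.23 (adjusted p = 0.402). EGLN2, the gene of the hydroxylase PHD1, was at -0.04 (adjusted p = 0.885). Among 22 tested JmjC demethylases, oxygen-dependent enzymes that remove histone methyl groups, 2 rose and 0 fell (median 0.03). KDM3A (chr2:86667770-86719839) had 30.3 to 41.6 CPM (median 32.5) and 51.1 to 98 CPM (median 84.2) (log2 fold change 1.20 ± 0.14, adjusted p = 0.000178), and KDM4B rose by 0.76 ± 0.12 (adjusted p = 0.00345).

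Signals to vessels held some raised members. Of 28 tested angiogenic and vascular genes, 6 rose and 0 fell (median 0.07), where 1.79% of all tested genes rose. ADM, which encodes the vasodilator adrenomedullin (chr11:10326620-10328944), had 15.7 to 33.4 CPM (median 20.9) and 82.6 to 159 CPM (median 127) (log2 fold change 2.46 ± 0.10, adjusted p = 5.85e-09). VEGFA, the central vessel growth factor (chr6:43737921-43754224), had 27.9 to 42.4 CPM (median 32.5) and 51 to 69.8 CPM (median 59) (log2 fold change 0.85 ± 0.11, adjusted p = 0.000375), a smaller change in which the groups were still apart. ANGPTL4, an inhibitor of lipoprotein lipase, had 0.434 to 3.44 CPM (median 0.999) and 0 to 13 CPM (median 5.86) (log2 fold change 2.30 ± 0.39, adjusted p = 0.00455). Its groups overlapped through the shallow hypoxia + DMSO replicate 2 at 0 CPM, and it was higher in 5 of 6 pairs. The other raised members were the secreted glycoprotein STC2 (1.43), FGF11 (1.43) and PDGFC, a platelet-derived growth factor (0.38). The groups of STC2 and FGF11 overlapped, and FGF11 passed in 2 of 6 fits without a pair. VEGFC was at 0.03 (adjusted p = 0.956). F3, the coagulation starter tissue factor, and ITGB8, an integrin subunit, belong to no list and were picked once their values were known. They rose by 1.45 and 1.31 (adjusted p = 1.39e-05 and 1.28e-06).

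Of 15 tested enzymes of collagen hydroxylation and cross-linking, 4 rose and 0 fell (median 0.06), where 1.79% of all tested genes rose. P4HA1, the catalytic subunit of collagen prolyl 4-hydroxylase (chr10:74766975-74856732), had 71.7 to 89.3 CPM (median 81.5) and 164 to 232 CPM (median 222) (log2 fold change 1.40 ± 0.08, adjusted p = 2.58e-07), and its sister subunit P4HA2 rose by 0.50 ± 0.09 (adjusted p = 0.00771). PLOD2, a lysyl hydroxylase, rose by 0.99 ± 0.08 (adjusted p = 7.66e-06) and LOX, which cross-links collagen, by 0.84 ± 0.12 (adjusted p = 0.00115). As a share of all counts the list was 0.288% in hypoxia + DMSO replicate 1 and 0.387 to 0.421% in the other hypoxia + DMSO libraries.

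The lists of mTORC1 regulators, MAPK feedback, the circadian clock, the MYC network and the integrated stress response held few raised members and no lowered ones. They stand together here by choice, and several had more negative than positive fold changes. In the list of mTORC1 and its regulators, DDIT4 and PRKAG2, a regulatory subunit of AMP-activated kinase (0.47, adjusted p = 0.0419), rose and 0 of 29 fell (median -0.07). PRKAG2 had overlapping groups, was higher in 5 of 6 pairs and passed in 2 of 6 fits without a pair. Among 16 MAPK feedback genes, SPRY1 and the phosphatase gene DUSP1 (0.86 ± 0.10, adjusted p = 0.000128) rose and 0 fell, with 11 of 16 negative. In the circadian list 4 of 19 rose and 0 fell, namely BHLHE40, BHLHE41 and NFIL3, which are repressors, and C1orf51, whose protein is the clock repressor CHRONO. BHLHE40 (chr3:5021122-5027008) had 50.6 to 69 CPM (median 54.2) and 119 to 199 CPM (median 170.4) (log2 fold change 1.52 ± 0.11, adjusted p = 1.28e-06), and the other members rose by 0.94, 0.77 and 1.74 in that order. MXI1, an antagonist of MYC (chr10:111967363-112047123), was the only gene of its network of 11 to pass, with 19.3 to 30.7 CPM (median 27.8) in normoxia and 44 to 64.9 CPM (median 55.9) (log2 fold change 1.05 ± 0.10, adjusted p = 3.33e-05), and MYC was at 0.12 (adjusted p = 0.569). In 2 further lists, CCNG2, an atypical cyclin of resting cells, rose by 1.05 ± 0.10 and the antiproliferative BTG1 by 0.88 ± 0.14 (adjusted p = 2.95e-05 and 0.00307). Each of these 2 lists also had a lowered member. Of 16 tested cyclins and cyclin-dependent kinase inhibitors 1 rose and 1 fell, CCND1. Of 22 tested immediate early transcription factors 1 rose, BTG1, and 1 fell, SRF. In the integrated stress response list 2 of 29 rose and 0 fell, TRIB3 (0.91) and the amino acid transporter SLC38A2 (0.58), with ATF4 itself at 0.30 (adjusted p = 0.125).

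Several other lists held 1 or 2 raised members and no lowered ones, where 1.79% of all tested genes rose and 0.454% fell. They were MFNG (1.56), a glycosyltransferase of Notch receptors, with RBPJ (0.45, adjusted p = 0.0165, and 0.0587 without the block) among 18 Notch genes, GADD45B (0.61) among 25 p53 targets, IFIT2 (0.84, past the threshold in 1 of 6 fits without a pair) among 23 interferon-stimulated genes and DARS (0.63) among 22 aminoacyl-tRNA synthetases. Most members of these lists had negative fold changes, 11 of the 18, 15 of the 25, 13 of the 23 and 12 of the 22 in that order. In ribosome biogenesis, IMP3 (0.71) and FBL (0.38, adjusted p = 0.0354, and 0.0699 without the block) rose among 98 tested genes, 66 of which were negative. These 2 of 98 are near the share of all tested genes that rose, and FBL passed in 2 of 6 fits without a pair. In the renal marker list PAX2 rose by 0.50 and KRT19 by 0.36 (adjusted p = 0.0491 and 0.0269, and 0.345 and 0.0716 without the block). The renal list summed to 3792 to 4253 CPM in normoxia and 4079 to 4528 CPM in hypoxia.

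Several processes often discussed beside hypoxia had no gene past the threshold in either direction. These were 20 tested genes of cadherins and epithelial-mesenchymal factors (median -0.06), 27 NRF2 antioxidant genes (0.06), 32 genes of endoplasmic reticulum chaperones and the unfolded protein response (0.00), 21 heat shock proteins (0.06), 19 iron-handling genes (0.08) and 26 genes of the BCL2 family and apoptosis (-0.06). They also included 35 proteasome subunits (0.09), 25 nucleotide synthesis genes (0.01), 76 mitochondrial ribosomal proteins (0.08), 54 genes of DNA replication (0.04) and 11 genes of the AHR pathway (0.16), with AHR at 0.18 (adjusted p = 0.497). At an unadjusted p under 0.05 each of these 11 lists had 1 to 9 members higher and 0 to 5 lower in edgeR, and DESeq2 called at most 2 higher and 1 lower in any of them. HSPA5, the main endoplasmic reticulum chaperone, was at -0.11 (adjusted p = 0.578). A fold change that missed the threshold does not show that these genes were unaffected, and the 5th to 95th percentile of all log2 fold changes was -0.46 to 0.41.

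Among carbonic anhydrases and acid-base transporters, 0 of 15 tested rose and 1 fell, the bicarbonate transporter SLC4A7 (-0.56 ± 0.13, adjusted p = 0.0404, and 0.0759 without the block), with 14 of 15 negative and a median of -0.18. CA9, a carbonic anhydrase that HIF induces in many carcinomas, had 13 counts in normoxia + DMSO replicate 4 and 0 in each of the other 11 libraries. EGLN3, another classical target, had 97 counts in the same normoxia library, 1 in hypoxia + DMSO replicate 5 and 0 in the other 10. That normoxia library is the one with the highest sum of fibroblast markers. Its extra counts were not confined to these markers, since FABP7 had 157, PECAM1 22 and KDR 14 counts in it and 0 in the other 11 libraries. The source of these counts was not tested. STC1 had 12 counts in it and 0 elsewhere, and EPO had 2 counts in hypoxia + DMSO replicate 5 and 0 elsewhere. No induction of these 4 genes was detectable at these depths, where 3 counts are up to 4.20 CPM.

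The 2 gene sets of the study itself were read for their direction, although both were chosen with these libraries in hand or to be read in these cells, so their counts are not independent evidence. Of 11 genes measured by RT-qPCR, 5 rose and 0 fell. These were PFKFB4, NDRG1, ANKRD37, INSIG2 and HPRT1, the reference gene of those assays, the last at 0.49 (adjusted p = 0.0463). The primer list names PFKFB4, NDRG1, ANKRD37, INSIG2 and ARL10 as HIF targets. Among these only ARL10 did not pass. The same primer list names CYP1B1, ALDH1A3, CYP27A1, BMF and ASB2 as AHR targets. None of those AHR targets passed in either direction. HPRT1 passed in 1 of 6 fits without a pair and fell short under 13 of 22 alternatives. Of 14 genes selected as common targets of HIF and AHR, 10 rose and 0 fell, all 14 had a positive fold change, and the median was 0.57. The study had picked them as raised by both hypoxia and ITE, with DESeq2 rather than edgeR. PAG1, an adaptor protein (1.46), WSB1, a ubiquitin ligase subunit (0.85), and LIMCH1 (0.80) were among the 10 together with SLC2A1 and MFNG. LIMCH1 had overlapping groups and passed in 2 of 6 fits without a pair.

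The clearest decrease was in genes that act in mitosis. Of 51 tested, 6 fell and 0 rose, where 0.454% of all tested genes fell and 1.79% rose. Negative fold changes were found in 49 of the 51 and in 6113 of all 11664 tested genes, and the list's median was -0.31. The list made up 0.586 to 0.609% of all counts in normoxia (median 0.603%) and 0.453 to 0.494% in hypoxia (median 0.478%), lower in 6 of 6 pairs and without overlap. In a bulk sample fewer mitotic cells and less of these RNAs per cell cannot be told apart. PLK1, the kinase that drives mitotic entry and spindle assembly (chr16:23688977-23701688), had 120.1 to 164 CPM (median 131) in normoxia and 57.9 to 112 CPM (median 86.2) in hypoxia (log2 fold change -0.68 ± 0.10, adjusted p = 0.00164). CDC20, the activator of the anaphase-promoting complex (chr1:43824652-43828874), had 256 to 307 CPM (median 263) and 169 to 209.5 CPM (median 188) (log2 fold change -0.54 ± 0.08, adjusted p = 0.00147). Every hypoxia library was below every normoxia library for both, and both passed in all 6 fits without a pair. HMMR, a spindle protein and hyaluronan receptor (chr5:162887209-162918947), had 87.9 to 107 CPM (median 97) and 66.6 to 83.6 CPM (median 68.7) (log2 fold change -0.45 ± 0.08, adjusted p = 0.0108). The others were the kinesin KIF14 (-0.59 ± 0.11), the phosphatase CDC25B, which activates CDK1 (-0.52 ± 0.10), and the spindle pole protein ASPM (-0.43 ± 0.10).

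The size of the mitotic set depended on the libraries entered more than its direction did. It was 21 genes without pair 1, 7 without pair 2, 2 without pair 3, 5 without pair 4, 2 without pair 5 and 4 without pair 6, while the median stayed between -0.27 and -0.32. Members short of the threshold included AURKA (-0.39, adjusted p = 0.0526), CCNB1 (-0.35, adjusted p = 0.0533), MKI67 (-0.58, adjusted p = 0.262) and CDK1 (-0.01, adjusted p = 0.98). A further 9 lowered genes act at the spindle, centromere or in mitotic exit by common knowledge and were gathered once their values were known. They were FAM64A (-0.70), NDE1 (-0.62), PSRC1 (-0.61), BORA (-0.59), CCNF (-0.56), FAM83D (-0.54), HJURP (-0.50), CDCA8 (-0.42) and ARHGAP11A (-0.46). Among 54 tested genes of DNA replication, 0 were called by edgeR (7 higher and 0 lower at an unadjusted p under 0.05, and 2 higher with DESeq2), 33 were positive and the median was 0.04. The 9 tested replication-dependent histone genes, whose transcripts mostly lack the poly(A) tail on which these libraries were selected, had a median of -0.44 with 0 called in edgeR (0 higher and 1 lower at an unadjusted p under 0.05, and 1 lower with DESeq2).

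**Figure D3:**
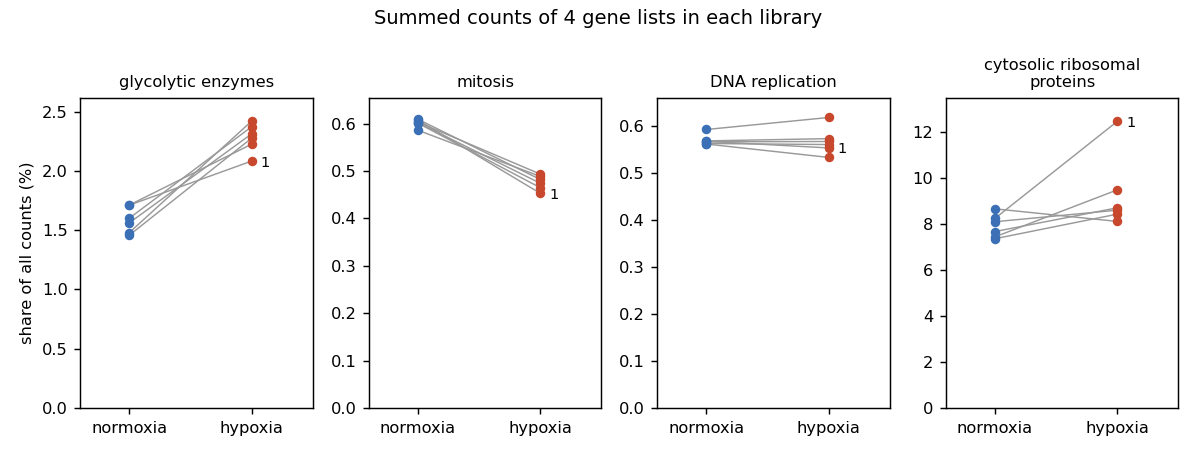
Percent of all counts taken by 4 gene lists in each of the 12 libraries, with each point a library, a line joining equal replicate numbers and the label 1 for hypoxia + DMSO replicate 1; the y axes start at 0 and differ between panels. Glycolytic enzymes are at 1.46 to 1.71% in normoxia and 2.08 to 2.42% in hypoxia, and mitosis genes at 0.586 to 0.609% and 0.453 to 0.494%.

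The promoters of late cell cycle genes are known for 2 elements, the cell cycle genes homology region with the core TTTGAA and CCAAT boxes bound by NF-Y. Both were searched on both strands. TTTGAA was in 68.2% of the 44 mitosis promoters at hand, 2.22% of 45 replication promoters, 22% of lowered, 6.75% of raised and 9.40% of all tested promoters (15.2% of all promoters in the table). CCAAT was in 75% of mitosis, 57.8% of replication, 65.9% of lowered, 34.4% of raised and 37.2% of tested promoters (34.6% of all promoters in the table). The promoters of PLK1 (chr16:23678639-23678938, forward strand), CDC20 (chr1:43358731-43359030, forward strand) and HMMR (chr5:163460382-163460681, forward strand), again from RefSeq on GRCh38.p14, are shown as those of the lowered mitosis genes described above, with both elements in capitals.
PLK1: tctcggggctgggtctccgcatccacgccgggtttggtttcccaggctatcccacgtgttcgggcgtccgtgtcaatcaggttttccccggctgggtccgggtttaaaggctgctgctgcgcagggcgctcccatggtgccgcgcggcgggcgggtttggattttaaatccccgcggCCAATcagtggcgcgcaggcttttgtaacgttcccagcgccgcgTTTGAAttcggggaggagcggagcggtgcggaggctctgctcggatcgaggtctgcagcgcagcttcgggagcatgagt
CDC20: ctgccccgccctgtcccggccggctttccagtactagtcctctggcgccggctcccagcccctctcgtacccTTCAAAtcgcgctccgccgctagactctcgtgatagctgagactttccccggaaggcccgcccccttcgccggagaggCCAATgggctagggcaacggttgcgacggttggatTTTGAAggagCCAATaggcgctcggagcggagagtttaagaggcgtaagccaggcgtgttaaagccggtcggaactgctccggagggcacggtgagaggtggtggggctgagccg
HMMR: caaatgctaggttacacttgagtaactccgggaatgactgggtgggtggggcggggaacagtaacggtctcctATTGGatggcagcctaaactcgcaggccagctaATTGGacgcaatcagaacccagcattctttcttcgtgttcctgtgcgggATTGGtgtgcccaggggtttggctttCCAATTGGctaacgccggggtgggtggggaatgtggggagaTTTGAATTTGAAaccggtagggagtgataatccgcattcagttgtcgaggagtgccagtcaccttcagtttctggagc

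Of the 53 lowered genes 44 were in no list, the 9 spindle and centromere genes above among them, and the others were diverse. Of the genes described next, SRF and CCND1 are list members named above. SRF, the serum response factor that drives cytoskeletal genes (chr6:43139007-43149244), had 78.1 to 92.6 CPM (median 84.2) and 47.6 to 79.6 CPM (median 60.05) (log2 fold change -0.48 ± 0.11, adjusted p = 0.0375), and the ranges overlapped slightly. ANKRD1, a muscle ankyrin repeat gene that YAP is known to induce (chr10:92671853-92680844), had 106 to 197 CPM (median 144) and 70.02 to 137 CPM (median 89.6) (log2 fold change -0.69 ± 0.10, adjusted p = 0.00164). Its groups overlapped through hypoxia + DMSO replicate 5 at 137 CPM, and it was lower in 6 of 6 pairs. ZYX (zyxin) and LIMA1 (an actin-bundling protein), picked once their values were known, fell by 0.42 and 0.44 on the log2 scale (adjusted p = 0.0253 and 0.0118, the latter 0.0973 without the block). CCND1, which encodes cyclin D1 (chr11:69455924-69469242), had 158 to 278 CPM (median 235) and 133 to 243 CPM (median 164) (log2 fold change -0.41 ± 0.10, adjusted p = 0.0486, and 0.225 without the block), with overlapping groups.

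Some lowered genes with larger fold changes were low or unsteady. EPPK1, which encodes epiplakin, had 1.42 to 2.74 CPM (median 1.87) in normoxia and 0 to 0.752 CPM (median 0.252) in hypoxia (log2 fold change -2.24 ± 0.48, adjusted p = 0.027). All its values are under 4.20 CPM, the level of 3 counts in the shallowest library, its repeats limit unique mapping, and it passed in 1 of 6 fits without a pair. EPPK1 had at least 10 counts in fewer than 3 hypoxia libraries and so entered the test mainly through normoxia, where it was high. HAS3, a hyaluronan synthase, had 16.4 to 22.1 CPM (median 19.5) and 4.20 to 14.6 CPM (median 11.4) (log2 fold change -0.91 ± 0.21, adjusted p = 0.0441). The groups were apart, its lowest value was 3 counts in hypoxia + DMSO replicate 2, and it passed in 2 of 6. THSD4, a matrix protein gene, had a log2 fold change of -1.27 (adjusted p = 0.0186, and 0.0712 without the block), WNT7B, a Wnt ligand, -0.77 (0.0167 and 0.081) and SH2B3, a signalling adaptor, -0.77 (0.0465 and 0.0699). SH2B3 was 11.3 CPM in hypoxia + DMSO replicate 1 and 28.9 to 37.7 CPM in the other hypoxia libraries. Other large decreases were ZNF697 (-0.91), DAGLA (-0.78), LRRC8B, a volume-regulated anion channel subunit (-0.75), C12orf49 (-0.67) and ZNF800 (-0.66, adjusted p = 0.0467, and 0.0683 without the block). LRRC8B passed in 5 of 6 fits without a pair and each of the others in 1 or 2. EGR1 and BMF had larger negative values of -1.50 and -1.22 that missed the threshold (adjusted p = 0.12 and 0.134).

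The same comparison could be made in libraries that share no sample with it, hypoxia + ITE against normoxia + ITE. There 56 genes rose (0.48% of those tested) and 0 fell (0%; 568 lower at an unadjusted p under 0.05, 49 called by DESeq2 and 149 by limma voom with quality weights). All 56 were among the 209. Of the 209 genes, 207 were positive with ITE, with a median log2 fold change of 0.71 against 0.77 without it, and of the 53, 50 were negative with a median of -0.50 against -0.53. Hypoxia + ITE replicate 6 stood apart, with a median deviation of 0.627 against 0.165 to 0.315 in the other libraries of its group. Without pair 6, 129 genes rose and 21 fell with ITE, of which 114 and 13 were among the 209 and the 53, and 208 of the 209 and 53 of the 53 then had the same direction.

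DDIT4 had a log2 fold change of 3.12 with ITE (adjusted p = 3.77e-05) beside 3.54 without it, and BNIP3 2.40 (4.09e-05) beside 2.56. For PLK1 it was -0.76 (adjusted p = 0.104) beside -0.68. The difference itself was tested as the interaction over all 24 libraries, in which 0 of 11664 genes passed by edgeR with or without the block, DESeq2 or limma voom (0%), and 377 (3.23%) had an unadjusted p under 0.05. The called genes were chosen in the DMSO libraries, which also enter this interaction. Among the 209 genes 18 had an unadjusted p under 0.05, and among the 53, 9. The smallest among genes named here were those of THSD4 (interaction 1.15, unadjusted p = 0.00223, adjusted p = 0.879 in edgeR), WSB1 (-0.59, 0.00471 and 0.879) and ZNF470 (-1.36, 0.00704 and 0.879). A p that misses the threshold does not show that the response was equal with and without ITE.

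**Figure D4:**
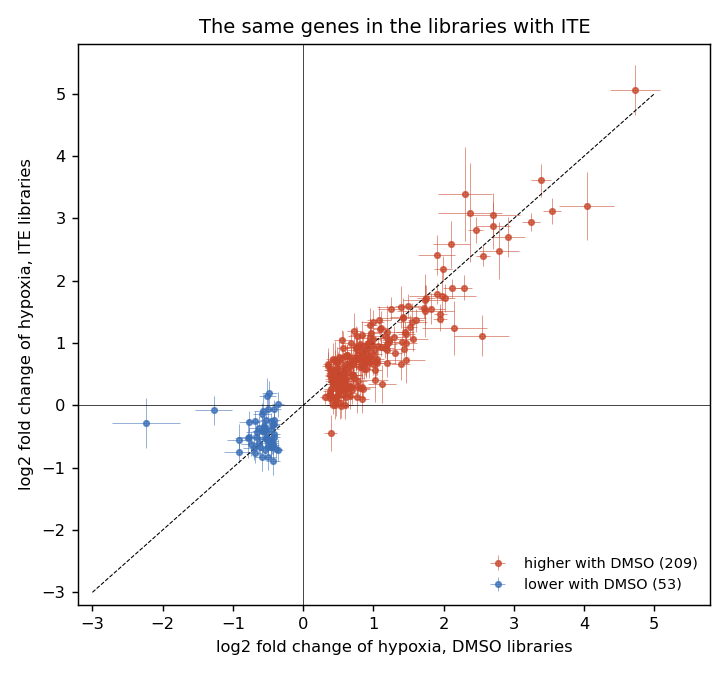
The edgeR log2 fold change of hypoxia over normoxia in the 12 DMSO libraries (x axis) and in the 12 ITE libraries (y axis) for the 209 raised and 53 lowered genes, with bars of 1 standard error and a dashed diagonal for equal change. Of the 209 genes, 207 lie above 0 on the y axis, and of the 53, 50 lie below.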

How the data were processed

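RNA-seq was done on polyA-selected RNA with a directional kit and paired-end sequencing, in 6 independent replicates per group. Per the labels and the methods of the study, the authors trimmed reads with Trim Galore 0.3.3, aligned them to GRCh37 with HISAT2 (written as version 2.05 in the labels), removed non-unique fragments with Picard 2.0.1 and counted them per UCSC gene with HTSeq 0.5.4p3. The strand setting is not given in the sources used here, so reads of overlapping antisense genes may be mixed, and copies of a gene family share or lose reads. The deposited values are raw counts per gene symbol.

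The main comparison was fitted with edgeR 4.0.16 (quasi-likelihood test, TMM scaling, Benjamini-Hochberg adjustment) in R 4.3.3 on the 12 DMSO libraries, with oxygen and the replicate number as terms. Standard errors (±) accompany log2 fold changes. CPM of tested genes and of 3 counts are TMM-scaled, and those of untested genes, marker sums and the filter's edge use library totals. Within each of the DMSO groups, no pair of libraries agreed within sampling noise, and other pairs were not compared. Counting error is the only error that the level of 3 counts covers. Alternatives used DESeq2 1.42.0 and limma 3.58.1. Scripts were tested on simulated data.

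The text names the 15 largest called changes in each direction with a mean of at least 1 CPM over the 12 libraries and the same direction in 6 of 6 pairs, and up to 5 called members of each of the 49 gene lists; other genes are named as canonical members of a list or as stated, and 1 gene that the rule picks is not reported here. The groups, lists and tests were chosen with earlier results of these data known. Gene positions come from GENCODE (GRCh37) and promoters from RefSeq (GRCh38.p14); both were matched by symbol.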

Additional observations from a re-analysis of the deposited data

Results flagged for a closer look

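Of 90 groups of 6 libraries looked at, 13 had 1 library far from the other 5, where chance gives about 1 in 20, and several of the groups share a library. Hypoxia + DMSO replicate 1 accounted for 6 of the 13. Of its deviations from the mean of all 12 libraries, GC content together with gene length fitted 21%. Its counts held 12.4% cytosolic ribosomal protein genes (8.10 to 9.47% in the rest of the group) and 1.65% respiratory chain subunits (1.09 to 1.28%). It had 0.288% collagen-modifying enzymes (0.387 to 0.421%) and 0.0285% carbonic anhydrases and acid-base transporters (0.0337 to 0.0358%), and SH2B3 at 11.3 CPM (28.9 to 37.7 CPM).

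Hypoxia + DMSO replicate 5 had the highest total of its group, 37995687 counts, and the highest ANKRD1, 137 CPM (70.0 to 90.8 CPM in the rest). RIMKLA was 9.80 CPM in the shallow hypoxia + DMSO replicate 2 (2.54 to 3.91 CPM in the rest).

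In normoxia + DMSO, PLK1 was 164 CPM in replicate 1 (120 to 136 CPM in the rest), mitosis genes took 0.586% of counts in replicate 2 (0.601 to 0.609%) and replication genes 0.593% in replicate 5 (0.562 to 0.569%). Fibroblast markers took 0.0129% of counts in replicate 4 (0.00315 to 0.00607%).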

How the results depend on the processing

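Each choice was changed on its own, except that fits without a single library, and those so stated, also left out the replicate block. Genes higher without ITE, 209 as reported, became 136 with all 24 libraries and no block, 388 and 364 with DESeq2 with and without the block, 558 with limma voom and quality weights, 59 with a required 1.5-fold change, 321 with offsets for GC content and length, and 128 at an adjusted p under 0.01. Genes lower, 53 as reported, became 25 and 16 with all 24 libraries with and without the block, 157 and 147 with DESeq2, 91 with library totals, 297 with limma voom, 0 with the required fold change, 102 without hypoxia + DMSO replicate 1 (47 in the fit without the block) and 7 at an adjusted p under 0.01. Leaving out 1 pair at a time gave between 126 and 389 higher genes and between 6 and 158 lower ones. With ITE, 56 higher became 156 with DESeq2, 306 with limma voom, 129 without pair 6, and 0 lower became 49, 149 and 21. Without the block 83 rose and 4 fell with ITE, and 159 and 39 without the block and hypoxia + ITE replicate 6. The cause of these differences was not tested. The removals of hypoxia + DMSO replicate 1, normoxia + DMSO replicate 4 (169 higher and 45 lower, also without the block) and hypoxia + ITE replicate 6 were added after seeing the data. Of the 92 named genes, 35 passed under each of 22 alternatives and 0 changed direction under any.

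The fit without the replicate block called 187 higher and 47 lower genes, 173 and 33 of them shared with the fit that has the block. Same-numbered libraries correlated in their deviations from the group means by 0.0972, -0.0221, 0.219, 0.0142, 0.234 and 0.115, above 0.1 in 3 of 6, so the numbers are not shown to pair the samples. Depth limits the low genes, since 3 counts were 4.20 CPM in hypoxia + DMSO replicate 2.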

Other observations

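Some raised genes outside every list have well-known roles and were picked once their values were known. KCTD11, an adaptor of a histone deacetylase-degrading ubiquitin ligase, rose by 1.75 ± 0.13 on the log2 scale (adjusted p = 2.42e-06 in edgeR, 6 of 6 pairs) and the transcription factor gene ZNF395 by 1.09 ± 0.09 (adjusted p = 4.98e-06, 6 of 6 pairs). AK4, a mitochondrial adenylate kinase, rose by 0.90 ± 0.09 (adjusted p = 2.83e-05, 6 of 6 pairs). NAMPT, the rate-limiting enzyme of NAD salvage, rose by 0.52 ± 0.08 (adjusted p = 0.00273, 6 of 6 pairs). CAV1, which coats caveolae, had the smallest log2 fold change of the 209, 0.32 ± 0.08 (adjusted p = 0.0491, 6 of 6 pairs).

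Among lowered genes outside every list, both phosphate transporter genes SLC20A1 and SLC20A2 fell, with log2 fold changes of -0.45 ± 0.11 and -0.41 ± 0.09 (adjusted p = 0.0463 and 0.0273 in edgeR, 6 of 6 pairs each). PLAU, which encodes urokinase, had -0.53 ± 0.11 (adjusted p = 0.0208), DNMT3B, a de novo DNA methyltransferase, -0.57 ± 0.13 (adjusted p = 0.0404) and MAT2A, which makes S-adenosylmethionine, -0.41 ± 0.09 (adjusted p = 0.0238), each lower in 6 of 6 pairs.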
